A study of Saccharomyces cerevisiae with 117 samples.

Results

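The hypotonic condition was compared with the isotonic condition in 28 single cells of *Saccharomyces cerevisiae*, out of 117 cells sequenced. The cells were chosen by their GEO labels and titles: 12 hypotonic cells with titles starting with C (2 cells) or F (10 cells), and 16 isotonic cells of the same batch with titles starting with A (9 cells), E (2 cells) or G (5 cells). Another 3 isotonic cells of that batch, A44, A47 and G36, were left out. No title letter held both conditions, so the medium and whatever set the letters apart cannot be told apart. Each contrast was made 3 times, to show how far a value depends on the isotonic cells chosen. The isotonic side was all 16 cells, the 9 A cells alone or the 7 E and G cells alone. All 3 contrasts share the same 12 hypotonic cells, so they do not separate the letters from the condition. The titles of all 12 hypotonic cells also end in X, as do those of the 2 E cells, whereas no A or G title does. What the X marks was not found in the sources used, and the 3 contrasts do not separate it from the condition.

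The study sequenced full-length mRNA of single spheroplasts, which are yeast cells whose wall has been digested, under osmotic or nutrient stress. All cells came from 1 clone of strain S288C, grown in rich YPD medium to mid-log phase. They were softened for 15 min in a buffer with dithiothreitol and digested for 60 min with Zymolyase, a wall-degrading enzyme, in a synthetic S medium with glucose, amino acids and 1 M sorbitol. Isotonic cells were then kept in S medium with 1 M sorbitol, and hypotonic cells in S medium with no sorbitol. Exposure lasted at least 30 min and, per the labels, up to 5 h (the methods of the paper give a shorter upper limit), and no source used here gives the time for a single cell. The isotonic cells were therefore held in a medium of high osmolarity, and both groups had lost their wall by the same treatment. Single cells were taken up with a patch pipette, reverse transcribed, PCR amplified and sequenced with no molecular identifiers, so intervals given for reads or cells cover counting error only. No separate cultures are named within a condition. Each condition was therefore taken as 1 sample, no test between conditions was possible, and spreads below are spreads over cells.

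A yeast cell reads falling osmolarity as water inflow and stretch of its membrane. At the plasma membrane the sensor kinase Sln1 passes phosphate through Ypd1 to the regulators Ssk1 and Skn7. High osmolarity stops this relay and switches on the kinase Hog1, which raises glycerol synthesis, while low osmolarity keeps Hog1 off, opens the glycerol channel Fps1 and feeds Skn7. Swelling also engages the cell wall integrity pathway, from the sensors Wsc1 and Mid2 through Rho1 and Pkc1 to the kinase Slt2, together with calcium entry through Cch1 and Mid1 and the TORC2 branch at the eisosomes.

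Reads on gene entries ran from 4297691 to 7870247 per hypotonic cell and from 3603505 to 55179414 per isotonic cell. A hypotonic cell had 1482 to 5650 genes with at least 1 read (median 3255) and an isotonic cell 1816 to 5679 (median 4149.5). After thinning every cell to 1000000 reads the medians were 2932.5 and 3232. The cells F22X and F23X had fewer genes than any isotonic cell, whereas both C cells had 5583 and 5650. Reads of ERCC spike-in RNA, which was added to most but not all tubes, were 6 to 33715 in hypotonic cells. In the isotonic cells compared they were 0 to 117, with all 9 A cells at 0. The left-out isotonic cell G36 had 2040822. Of the markers of mating type alpha, the type of S288C, MF(ALPHA)1 (the alpha-factor gene) had reads in 12 of 12 hypotonic and 15 of 16 isotonic cells, STE3 in 12 and 12, SAG1 in 9 and 13, and MF(ALPHA)2 in 7 and 11. Mean values of the 7 genes specific to a cells lay between 0 and 8.58 CPM in hypotonic cells and between 0 and 1.61 CPM in isotonic cells. No 2 cells had identical counts.

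Levels are given as CPM, the reads of a gene as a share of the reads on all genes of that cell, times 1000000. A fold change is the log2 ratio of the mean CPM of the hypotonic cells to that of the isotonic cells, each with 1 CPM added and each cell weighted equally, and a gene was counted as higher or lower from a difference of 2-fold. Of 5600 genes with a read in at least 20% of the 28 cells, 1186 (21.2%) were higher and 1687 (30.1%) lower in hypotonic cells by this measure. Against the A cells alone 22.8% were higher and 30.1% lower, and against the E and G cells alone 39.4% were higher and 24.4% lower. The genes that kept their side in all 3 contrasts were 802 on the higher side (14.3%) and 655 on the lower side (11.7%). The shares of the gene lists below are to be read against these. Of the 802 and 655 genes, 553 and 643 also stayed at least 2-fold on their side of the 16 isotonic cells when the highest cell of each condition was left out. The median fold change of all 5600 genes was -0.26 against all isotonic cells, -0.25 against the A cells and 0.37 against the E and G cells. A further description compared every hypotonic cell with every isotonic cell. The hypotonic cell was higher in 46.4% of these pairs for the median gene, where 50% would be even and ties count equally for both sides. Below, 3 CPM values in a row are the lowest, median and highest cell, hypotonic first and isotonic second. A signed value beside a gene is its log2 fold change against all 16 isotonic cells, and a pair of signed values in brackets gives it against the A cells and against the E and G cells. The cells of the conditions overlapped in every gene, that is, 0 of 5600 genes (0%) separated them.

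**Figure D1:**
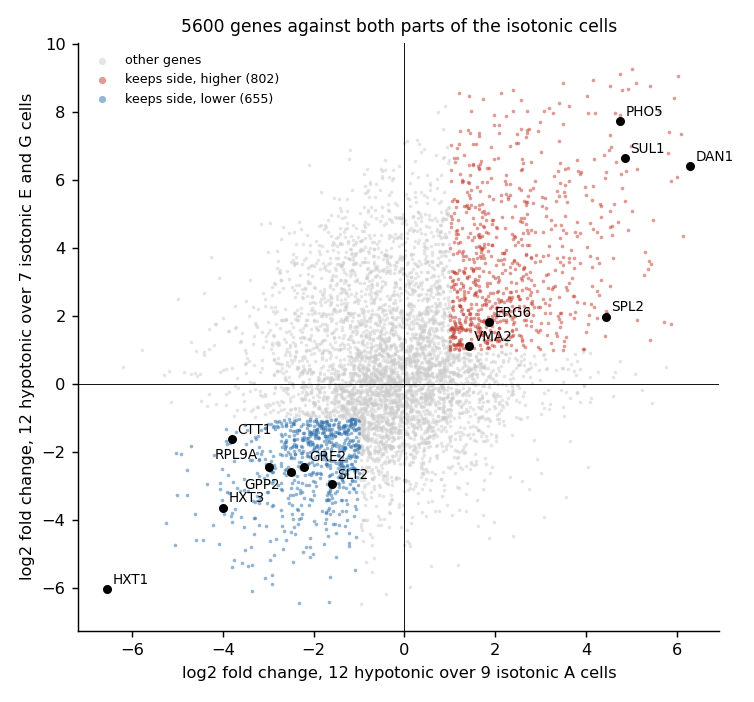
Log2 fold change of 5600 genes in the 12 hypotonic cells over the 9 isotonic A cells (x axis) and over the 7 isotonic E and G cells (y axis), 1 point per gene. The 802 red and 655 blue points kept their side at 2-fold or more in all 3 contrasts, with DAN1 and PHO5 far to the higher side of both axes and HXT1 far to the lower side of both, and the gray cloud spreads wider up the y axis than along the x axis.

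A set of 21 genes known to rise at high osmolarity took a smaller share of reads in each hypotonic than in any isotonic cell. The list was put together from general knowledge after values of its members had been seen, so its separation is only a description. It held 14 genes at least 2-fold lower in hypotonic cells and 1 at least 2-fold higher. Of the 21, 9 kept the lower side in all contrasts and 1, GCY1, the higher side. The median fold change was -1.67 (-1.94 against A cells, -0.99 against E and G cells), beside -0.26 for all genes. Summed over the list, these genes took 0.172% to 0.677% of the reads of a hypotonic cell (median 0.401%) and 0.679% to 1.90% of an isotonic cell (median 1.12%). The groups did not overlap, although the highest hypotonic and the lowest isotonic cell nearly touched. Cells outside the comparison lay on the isotonic side. The 3 left-out isotonic cells had 1.10% to 1.58%, and the 20 cells of the amino acid starvation treatment (AAS), kept in sorbitol too, had 0.870% to 2.62%, all above the 12 hypotonic cells. Of the 20 AAS cells 8 also lay above every isotonic cell. AAS cells differ from the hypotonic cells both by the sorbitol and by the lack of amino acids, and the part of each in this share was not tested. The separation did not rest on all members alike. When each gene was left out in turn, the groups stayed fully apart for 6 of the 21 omissions. The largest overlap came with SLT2 left out, which is also the kinase of the wall integrity pathway named above. Without SLT2 the lowest isotonic share was 0.375%, only 6 of the 12 hypotonic cells lay below every isotonic cell, and the hypotonic cell was higher in 3.65% of pairs.

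**Figure D2:**
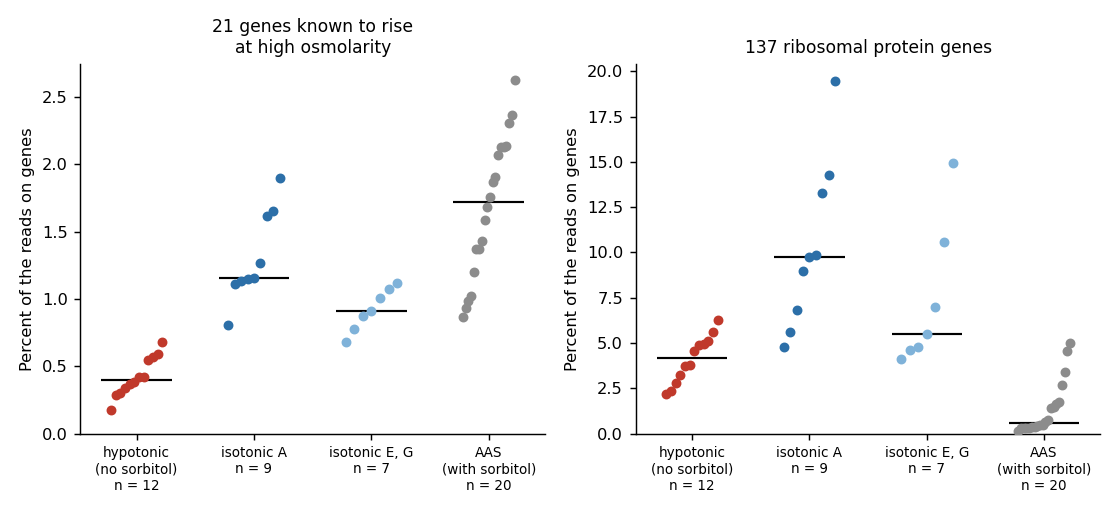
Percent of the reads on genes that fell on 21 genes known to rise at high osmolarity (left) and on 137 ribosomal protein genes (right), 1 point per cell and a line at the median, for the hypotonic, isotonic A, isotonic E and G, and AAS cells. On the left all 12 hypotonic cells (0.172% to 0.677%) lie below all other cells, while on the right they overlap the isotonic cells and most AAS cells lie lower still.

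Many of these genes carry the stress response element AGGGG, the letters bound by Msn2 and Msn4, in the 500 bases before the start codon. It was found on either strand in 15 of 21 promoters of the list (71.4%) and in 34.4% of the promoters of all genes compared. Stretches of a pair of members of the list are shown with the element in capitals, because GPP2 and CTT1 are described next (R64, written along the gene's own strand, so that the element appears in GPP2 as its reverse complement CCCCT).
GPP2, chrV:280912-280996, minus strand: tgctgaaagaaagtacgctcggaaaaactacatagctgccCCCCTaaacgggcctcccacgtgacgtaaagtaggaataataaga
CTT1, chrVII:654216-654315, plus strand: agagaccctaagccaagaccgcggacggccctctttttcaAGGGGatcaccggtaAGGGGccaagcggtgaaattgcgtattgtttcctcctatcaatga

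The glycerol genes GPP1, GPP2 and DAK1 were lower. GPP1, a phosphatase that makes glycerol, had a lowest, median and highest value of 0, 188 and 894 CPM in hypotonic cells and of 238, 1437 and 2172 CPM in isotonic cells. For this gene 7 of 12 hypotonic cells lay below every isotonic cell and 11 of 16 isotonic cells lay above every hypotonic cell, with a fold change of -1.94 (-2.24 against A, -1.43 against E and G). Its paralog GPP2, the isoform known to answer osmotic stress, had 0, 83.2 and 255 CPM against 0.223, 369 and 2120.3 CPM. The fold change of GPP2 was -2.54, and 10 of 16 isotonic cells lay above the highest hypotonic cell. DAK1, a dihydroxyacetone kinase of glycerol use, had 0, 77.4 and 286 CPM against 0.18, 525.1 and 1370.2 CPM, a fold change of -2.38, with 11 isotonic cells above all hypotonic ones.

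GPD1, the enzyme of the first step to glycerol, was less clear. It had 0.381, 97.2 and 2886 CPM in the hypotonic and 0.742, 625 and 1519.6 CPM in isotonic cells, a fold change of -1.02. Here 1 hypotonic cell, F21X, was above all isotonic cells, and without the highest cell of each condition the value was -2.53. Of the 16 genes of glycerol and water channels compared, 6 were at least 2-fold lower and 3 higher, with 4 and 3 keeping their side, and the median was -0.43. Those on the higher side were GCY1, a glycerol dehydrogenase (1.27), ASK10, a regulator that opens Fps1 (1.60), and the aquaporin gene AQY1 (1.40). Of these GCY1 depended on the cells of few genes, since without F22X and F23X its value was -0.00739. FPS1, the glycerol channel itself, had a median of 0.586 CPM and 0.0151 CPM in the respective groups, with values of -0.65 against A and 2.68 against E and G cells. Without 1 cell the 2-fold difference was lost for GPD1 (-0.89 without F24X, -2.65 without F21X), GCY1 (0.73 without F22X) and AQY1 (0.20 without F40X, 2.04 without G50).

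Further members of the osmolarity list act on stress products and redox balance. GRE2, a methylglyoxal reductase, had 0, 63.1 and 481 CPM in hypotonic cells and 143, 448 and 2343 CPM in isotonic cells. For GRE2 10 of 12 hypotonic cells were below the lowest isotonic cell, the hypotonic cell was higher in only 8.33% of pairs, and the fold change was -2.31 (-2.22 and -2.42). ALD3, an aldehyde dehydrogenase, was at 0, 9.68 and 557 CPM against 0.185, 645 and 2017 CPM, a fold change of -3.00, with 7 of 12 and 16 of 16 cells holding a read. CTT1, the cytosolic catalase, was at 0, 32 and 151 CPM against 0, 243 and 1421 CPM. More than 1.5-fold shifts with 1 cell left out were found for ALD3 (-3.86 without C80X).

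CTT1 differed between the isotonic parts, with a fold change of -3.81 against A and -1.62 against E and G cells, and 8 of 16 isotonic cells lay above the highest hypotonic cell. HSP12, a small membrane-bound heat shock protein, had a fold change of -1.82, with 451 ± 616 CPM (SD, n = 12 cells) against 1592 ± 1589.8 CPM (SD, n = 16 cells). TPS1, which makes trehalose phosphate, had a fold change of -1.58 that fell short of 2-fold against E and G cells (-0.93). All 3 overlapped between the conditions, CTT1 down to 0 CPM on both sides. A wider list of 49 genes known to rise in many stresses, many through Msn2 and Msn4, was not apart as a whole. Its median was -0.37 (-0.74 and 0.49), with 15 genes at least 2-fold lower and 6 higher. Its summed share had a median of 1.77% in hypotonic and 1.67% in isotonic cells, with the hypotonic cell higher in 55.2% of pairs. The hypotonic cells differed by title letter, with 4.20% to 4.82% in the 2 C cells and 0.911% to 2.77% in the 10 F cells. The C cells were higher than the isotonic cell in 93.75% of their pairs and the F cells in 47.5%. The omission of 1 cell shifted by over 1.5 times HSP12 (-2.48 without F55X).

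**Figure D3:**
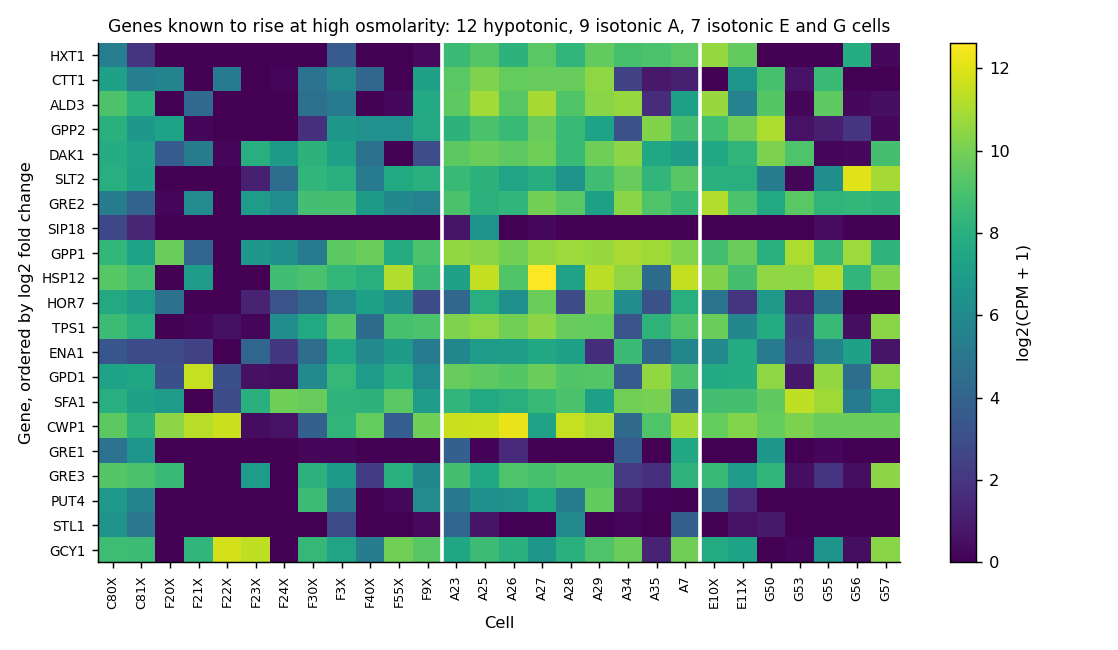
Level of the 21 genes known to rise at high osmolarity, log2(CPM + 1) by color, in each cell (columns: 12 hypotonic, 9 isotonic A, 7 isotonic E and G, split by white lines), genes ordered by fold change from lowest (HXT1) to highest (GCY1). Rows such as GPP1 and GRE2 are bright across nearly all isotonic cells and dim in most hypotonic ones, CTT1 and ALD3 are bright mainly in the A cells, and single cells depart from the rest, such as F21X for GPD1.

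The relay that senses osmolarity showed no common direction. Of 25 genes of the Sln1 relay and the Hog1 cascade compared, 4 were 2-fold or more higher and 8 lower, beside 21.2% and 30.1% of all genes. Of the 25, 3 kept each side, and the median was 0.03. SLN1, the osmosensor kinase, had reads in 3 of 12 hypotonic cells (25%, 95% Clopper-Pearson interval 5.49% to 57.2%) and in 12 of 16 isotonic cells (75%, 47.6% to 92.7%). At 1000000 reads per cell 3 and 10 cells kept a read. The fold change of SLN1 was -1.97 (-2.32 and -1.34), and the intervals of the shares of cells overlapped. Single cells moved the fold change by over 1.5 times for SLN1 (-3.71 without F3X).

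SKN7, the response regulator known for low osmolarity and wall stress, ran the other way at very low levels. It had 170 reads in 3 of 12 hypotonic cells and 0 reads in 16 isotonic cells. Taking 3 summed reads as the limit that 0 allows, its share of the summed reads was at least 166-fold higher in hypotonic cells, but SKN7 was in too few cells to be among the 5600 genes, and 162 of the 170 reads came from the cell F3X. YPD1, the phosphotransfer protein between Sln1 and its regulators, had reads in 3 and 6 cells. Neither gene was covered well enough to place the conditions.

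HOG1 itself had 0, 122 and 1776 CPM in hypotonic cells and 0.197, 228 and 1379 CPM in isotonic cells. Its mean values gave a fold change of 0.04 (0.49 and -0.38), but 4 of 12 hypotonic cells lay below every isotonic cell and the hypotonic cell was higher in 35.9% of pairs. PBS2, the kinase that activates Hog1, had 1.51, and the second osmosensor SHO1 2.15. SHO1 rested on few cells: its medians were 12.1 CPM in the hypotonic and 61.2 CPM in isotonic cells, the opposite order to its means. MSB2, the mucin partner of Sho1, was on the lower side (-1.21). Without 1 cell the 2-fold difference was lost for PBS2 (0.72 without F55X, 2.52 without G50) and MSB2 (-0.88 without A35, -3.26 without F21X). More than 1.5-fold shifts with 1 cell left out were found for SHO1 (1.38 without F21X).

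Components of the wall integrity pathway were past 2-fold about as often as all genes, and its kinase SLT2 was lower. Of 27 signalling genes, 7 were 2-fold or more higher and 9 lower, beside 21.2% and 30.1% of all genes. Of the 27, 4 kept the higher and 6 the lower side, beside 14.3% and 11.7% of all genes. SLT2 had 0, 91 and 313 CPM in hypotonic cells and 0.185, 273 and 4056 CPM in isotonic cells, a fold change of -2.34 (-1.61 and -2.94). For SLT2 7 of 16 isotonic cells were above every hypotonic cell, and the highest cells were G56 and G57. BCK1, the kinase at the head of the Slt2 cascade, had -2.98. The omission of 1 cell shifted by over 1.5 times SLT2 (-1.69 without G56) and BCK1 (-1.79 without G57).

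The sensors of the pathway differed among themselves. MID2, a sensor of wall and membrane stress, had reads in 6 of 12 and 15 of 16 cells and a fold change of -1.55 (-1.58 and -1.51). WSC4, a relative of Wsc1, had -2.96, and SLG1, which encodes Wsc1, had -1.03 but only -0.47 against the A cells. Their relatives WSC2 and WSC3, named after their values were seen, had 1.09 (2.09 and 0.37) and 0.67. ROM2, the exchange factor that loads Rho1 with GTP, had -1.93, and LRG1, a protein that makes Rho1 hydrolyse GTP, had -3.63. The genes kept on the higher side included MTL1, a relative of Mid2 (1.88), and MSG5, a phosphatase that turns Slt2 off (2.88). Against all isotonic cells the omission of a single cell ended the 2-fold difference of SLG1 (-0.48 without G50), WSC2 (-0.08 without F22X), ROM2 (-0.82 without G53) and MSG5 (0.62 without F21X, 4.04 without A29). By over 1.5 times a single cell moved WSC4 (-1.03 without E11X, -3.78 without C80X), LRG1 (-2.26 without G50) and MTL1 (2.72 without A25).

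Rho1, Pkc1 and the glucan synthases in the middle and at the end of the pathway did not reach 2-fold against all isotonic cells. RHO1 had 0, 189 and 802 CPM against 83.2, 505.1 and 1111 CPM (-0.62), and 4 hypotonic cells were below every isotonic cell. The fold changes of PKC1, RLM1, FKS1 and GSC2 (also called FKS2) were -0.09, -0.86, -0.24 and 0.27. GSC2, known to be induced by wall stress and calcineurin, thus had nearly equal medians, 404 CPM and 391 CPM.

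Known target genes of the pathway and the wall proteins themselves were lower against the A cells, with medians near 0 against the E and G cells. Of 20 targets compared, 9 were at least 2-fold lower, 0 higher and 5 kept the lower side, with a median of -0.83, or -1.31 against A and 0.12 against E and G cells. CRH1, which links chitin to glucan, had 0, 145 and 974 CPM against 0.522, 1111 and 3945 CPM, a fold change of -2.29 (-2.21 and -2.38), with 9 isotonic cells above all hypotonic ones.

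CIS3, a wall mannoprotein, had 0.334, 106 and 1201 CPM against 1.74, 902 and 3964 CPM (-2.36). KDX1, a relative of Slt2 that Rlm1 induces, had -2.85, with its highest values in the isotonic cells G56, G53 and G55. Of 33 structural wall genes, 14 were at least 2-fold lower and 2 higher, and 7 and 2 kept their side. Besides the genes above, the lower ones included CCW12 (-1.96), an abundant wall mannoprotein, and GAS1 (-1.63), a glucan-elongating enzyme, and the higher ones were SUN4 (2.66) and FLO11 (2.76), which act in septation and adhesion. Together the 33 genes took 0.349% to 2.96% of the reads of hypotonic cells and 1.40% to 4.97% of isotonic cells, and 6 of 12 hypotonic cells were below every isotonic one. In AAS cells the range was 0.955% to 2.44%, with the hypotonic cell higher in 45.4% of pairs. More than 1.5-fold shifts with 1 cell left out were found for CIS3 (-2.98 without F55X), KDX1 (-3.54 without F24X), SUN4 (1.52 without F20X, 3.29 without E10X) and FLO11 (2.07 without F3X, 3.37 without A23).

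Calcium genes were past 2-fold no more often than all genes. Of 20 genes compared, 3 were 2-fold or more higher and 5 lower, beside 21.2% and 30.1% of all 5600 genes. MID1, the regulatory part of the stretch-linked calcium channel, had 0, 3.00 and 233 CPM against 0, 67.3 and 2406 CPM, a fold change of -2.76 (-2.49 and -3.05). GDT1, a Golgi transporter of calcium and manganese, had -3.27 (-3.25 and -3.29). CCH1, the channel pore, and PMC1, the vacuolar calcium pump that calcineurin induces, did not reach 2-fold (-0.81 and -0.08). The omission of 1 cell shifted by over 1.5 times MID1 (-1.96 without G56, -3.39 without F30X).

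CNA1, CMK2 and CRZ1 were at least 2-fold higher against all isotonic cells. CNA1, a catalytic subunit of calcineurin, had a fold change of 2.09, and CMK2, a calmodulin-dependent kinase, had 1.28. The other catalytic subunit, CMP2, and the regulatory subunit CNB1 had -0.88 and -0.70. CRZ1, the transcription factor that calcineurin activates, had 0, 9.22 and 266 CPM against 0, 0.217 and 121 CPM. Its fold change was 1.74, just under 2-fold against the A cells (0.97), and it had reads in 8 of 12 and 10 of 16 cells. All of these levels were low and the cells overlapped. Against all isotonic cells the omission of a single cell ended the 2-fold difference of CNA1 (0.54 without F24X) and CMK2 (0.60 without F23X). By over 1.5 times a single cell moved CRZ1 (1.15 without F9X, 2.50 without A27).

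Membrane-domain genes stayed mostly within 2-fold or lower. PIL1, the core eisosome protein, had 130.5, 1867 and 6537 CPM in the hypotonic and 1.44, 1097 and 2988 CPM in isotonic cells, a fold change of 0.96 (0.96 and 0.95), and 3 hypotonic cells were above every isotonic cell. YPK1, the kinase under TORC2, and SLM1, which links eisosomes to TORC2, had 0.07 and -0.26. Of 31 genes of the group, 12 were at least 2-fold lower and 1 higher, but 3 and 1 kept their side. ORM1, which restrains sphingolipid synthesis, had -2.14, IST2, an anchor between endoplasmic reticulum and plasma membrane, -1.89, and AVO2, a TORC2 subunit, 3.31. Of 27 sphingolipid genes 6 kept the lower side, among them LCB3 (-3.21), a phosphatase of long-chain base phosphates, and YPC1 (-2.75), a ceramidase, and 3 the higher side, among them SUR1 (2.66), a mannosyltransferase of complex sphingolipids. More than 1.5-fold shifts with 1 cell left out were found for ORM1 (-3.01 without F30X), IST2 (-2.88 without F3X), AVO2 (2.42 without F55X, 4.15 without A7), LCB3 (-2.44 without G57) and SUR1 (1.19 without F30X).

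Among the genes that kept the lower side, ribosomal protein genes held 5 of the 6 in which the hypotonic cell was least often higher. Of all 137, 129 had a fold change below 0 and 71 kept the lower side, 33 of 56 small subunit and 38 of 81 large subunit genes. The hypotonic cell was higher in 4.17% to 66.1% of pairs for a ribosomal protein gene, with a median of 26.6%. The genes took 2.20% to 6.27% of the reads of hypotonic cells (median 4.18%) and 4.10% to 19.5% of isotonic cells (median 7.99%). In the medians the E and G cells (5.52%) lay between the hypotonic and the A cells (9.72%). Across the 28 cells the share and the number of genes detected in thinned cells had a Pearson r of 0.03 and a Spearman rho of 0.18 (given as a description). With the reads on genes r was 0.58 and rho 0.24 over the 28 cells, and r 0.52 and rho 0.34 over the 16 isotonic cells. Over the 12 hypotonic cells r was -0.09 and rho -0.20. The isotonic cell A7 had both the most reads (55179414) and the highest share (19.5%), while A35 had 33192899 reads and a share of 5.63%. The parts of depth and of detection in the difference were not tested.

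In the AAS cells this share was lower still, 0.153% to 5.01%, and 16 of 20 were below every hypotonic cell. The AAS cells within the hypotonic range were D93X, D94X, D95X and D96X (2.71% to 5.01%). Their titles end in X, as do those of all hypotonic cells. The other AAS cells with X, D26X, D91X and D97X, had 0.459% to 1.75%, and those without X 0.153% to 1.62%. For most AAS cells the order thus differed from that of the osmolarity genes, for which all AAS cells were above the hypotonic cells. The part of the X in this order was not tested.

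Promoters of a pair of these genes are shown with the letters ACCCNNACA, a short form of the site of Rap1, the factor that drives ribosomal protein genes, in capitals (R64, in the orientation of the gene; in RPL9A the letters lie on the other strand). The letters were found on either strand in 54 of 137 promoters (39.4%) of these genes and in 5.42% of the promoters of all genes compared.
RPL9A, chrVII:228591-228679, minus strand: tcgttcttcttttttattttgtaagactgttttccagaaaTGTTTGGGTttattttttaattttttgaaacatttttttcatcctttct
RPS4B, chrVIII:505950-506030, minus strand: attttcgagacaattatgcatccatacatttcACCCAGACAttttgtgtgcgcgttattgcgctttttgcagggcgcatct

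RPL9A, a large subunit protein, was at 0.288, 118 and 348 CPM in hypotonic cells and 174, 889.5 and 2715 CPM in isotonic cells. It had the lowest share of pairs of all genes that kept their side, 4.17%, and 9 of 12 hypotonic cells lay below every isotonic cell while 13 of 16 isotonic cells lay above every hypotonic one. Its fold change was -2.77 (-2.99 and -2.43). RPS3, at the mRNA entry of the small subunit, had 0.334, 227 and 774 CPM against 416, 1363 and 2764 CPM, a fold change of -2.13 and 4.69% of pairs.

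RPL10, which completes the large subunit near its end of assembly, had a fold change of -2.23 (-2.71 and -1.22), and RPL17B, near the peptide exit, had -2.78. RPS4B had 4.24, 183 and 841 CPM against 245, 905 and 2270.1 CPM, a fold change of -1.94. RPL9A, RPL17B and RPS4B each have a near-identical paralog, and only uniquely aligned reads were counted, so the value of each copy is uncertain. The 1 gene that kept the higher side, RPL7B, named after its value was seen, was at 821 ± 1051 CPM (SD, n = 12 cells) against 306 ± 316 CPM (SD, n = 16 cells), a fold change of 1.42. Without 1 cell the 2-fold difference was lost for RPL7B (0.94 without F23X).

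Of 39 translation factors and ribosome-bound chaperones, 16 were at least 2-fold lower and 1 higher, 22 lay within 2-fold, 7 kept the lower side and the median was -0.79. HYP2, the translation factor eIF5A, had 0, 111 and 671 CPM against 8.70, 449.8 and 1642 CPM (-1.62), and STM1, which binds idle ribosomes, had -1.65 (-1.93 and -1.18). Of 93 ribosome biogenesis genes, by contrast, 26 were 2-fold or more higher and 22 lower, 16 and 5 kept their side, and the median was -0.06. Single cells moved the fold change by over 1.5 times for STM1 (-2.31 without F20X).

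The low-affinity glucose transporters HXT1 and HXT3 were lower, within a list of uneven direction. Of 22 genes of hexose uptake and sensing, 9 were at least 2-fold lower and 2 higher, 5 and 2 kept their side, and the median was -0.59, or -0.75 against A and 0.79 against E and G cells. HXT3, a low-affinity glucose transporter, had 0, 28.5 and 308 CPM in hypotonic cells and 1.34, 1141 and 3112 CPM in isotonic cells. It was higher in the isotonic cell in most pairs (hypotonic higher in 13%), 12 of 16 isotonic cells lay above every hypotonic cell, and the fold change was -3.85 (-4.00 and -3.63). HXT1, the other low-affinity transporter and also a member of the osmolarity list, was the gene with the lowest fold change among those that kept their side by the rule used here, -6.34 (-6.54 and -6.04), with reads in 4 of 12 and 13 of 16 cells. HXT6, a high-affinity transporter, was on the higher side (1.89), though its near-identical copy HXT7 makes its reads uncertain. Of 38 genes of the respiratory chain and the ATP synthase, 15 were at least 2-fold lower and 4 higher, 9 and 2 kept their side, among them CYC1 (-2.61), which encodes cytochrome c, and ATP5 (-2.27), a stalk subunit of the ATP synthase. By over 1.5 times a single cell moved HXT1 (-7.64 without C80X) and HXT6 (3.12 without A7).

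Among the genes higher in hypotonic cells, several belonged to the phosphate response. Of 23 phosphate genes compared, 7 were 2-fold or more higher and 4 lower, and 6 and 2 kept their side, with a median of 0.23. As a share of reads the list was 0.229% to 1.94% in hypotonic and 0.249% to 1.81% in isotonic cells, so the group as a whole was not apart, and the difference lay in single genes. The letters CACGTG, bound by Pho4 and by Cbf1, were found in 15 of 23 promoters (65.2%) of these genes and in 6.28% of those of all genes compared. They are in capitals in the stretches of the highest pair, PHO5 and SPL2 (R64, in the orientation of the gene).
PHO5, chrII:431159-431244, minus strand: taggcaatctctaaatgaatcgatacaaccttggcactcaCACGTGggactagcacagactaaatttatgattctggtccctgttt
SPL2, chrVIII:375416-375501, minus strand: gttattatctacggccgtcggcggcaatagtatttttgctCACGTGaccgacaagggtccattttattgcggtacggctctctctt

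PHO5, the secreted acid phosphatase, had 0, 496 and 3173 CPM in hypotonic cells and 0, 1.33 and 127 CPM in isotonic cells. Of the hypotonic cells 8 of 12 lay above every isotonic cell, the hypotonic cell was higher in 84.4% of pairs, and the fold change was 5.44 (4.75 and 7.73). SPL2, a regulator of low-affinity phosphate uptake, had 0, 80.3 and 553 CPM against 0, 0.105 and 188 CPM. Its fold change was 2.87, or 4.33 without the highest cells, since 1 isotonic cell, G55, stood apart at 188 CPM. More than 1.5-fold shifts with 1 cell left out were found for PHO5 (6.16 without A26) and SPL2 (2.22 without F24X, 4.98 without G55).

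Of the genes of the polyphosphate polymerase complex, VTC1 and VTC2 were higher, with VTC1 at 1266 ± 1102 CPM (SD, n = 12 cells) against 483 ± 544 CPM (SD, n = 16 cells) and a fold change of 1.39, and VTC2 at medians of 669 CPM against 173 CPM and a fold change of 2.00. VTC3, VTC4 and VTC5 had -0.22, -0.85 and -1.68 (VTC5 at -2.50 and 3.58), and none of these kept a side. All 5 were named after their values were seen. PHM6, a gene of the same regulon, was at 2.00 with reads in 5 of 12 and 3 of 16 cells. PHO3, a second acid phosphatase next to PHO5, was on the lower side (-2.39), and its sequence is close to that of PHO5. Without 1 cell the 2-fold difference was lost for VTC5 (0.35 without A29, -2.79 without F3X) and PHO3 (-0.53 without E11X, -4.34 without F40X). Single cells moved the fold change by over 1.5 times for PHM6 (1.23 without F30X).

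Ergosterol genes took a larger share of reads in most hypotonic cells, while the number of genes that kept the higher side was near that of all genes. Of 27 genes, 8 were 2-fold or more higher and 4 lower, 4 and 2 kept their side, and the median was 0.53 beside -0.26 for all genes, but 0.44 beside 0.37 against the E and G cells. Together they took 0.738% to 2.01% of the reads of hypotonic cells (median 1.06%) and 0.322% to 2.02% of isotonic cells (median 0.634%). The hypotonic cell was higher in 81.8% of pairs with isotonic cells and in 77.9% of pairs with AAS cells. Against the isotonic parts the picture was uneven, since all 9 A cells had at most 0.792% while the median of the E and G cells, 0.977%, was near that of the hypotonic cells.

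The letters TCGTATA, the core of the site of the sterol factor Upc2, were found in 9 of 27 promoters (33.3%) of ergosterol genes and in 5 of 18 (27.8%) of the genes of the DAN and TIR mannoproteins and other genes known from anaerobic cells, beside 6.96% of the promoters of all genes compared. They are in capitals in stretches of the gene with the highest fold change in each of these lists (R64, in the orientation of the gene; in both the letters lie on the other strand and read TATACGA).
DAN1, chrX:709864-709950, minus strand: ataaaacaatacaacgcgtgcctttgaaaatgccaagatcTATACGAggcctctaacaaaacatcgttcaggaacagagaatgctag
ERG28, chrV:238248-238334, minus strand: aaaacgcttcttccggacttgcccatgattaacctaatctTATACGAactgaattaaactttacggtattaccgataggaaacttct

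ERG6, a sterol methyltransferase, had 45.5, 883 and 1979 CPM in hypotonic cells and 0.371, 225 and 919 CPM in isotonic cells. Its fold change was 1.85 (1.87 and 1.82), 6 of 12 hypotonic cells lay above every isotonic cell, and the hypotonic cell was higher in 84.9% of pairs. ERG28, the scaffold of the demethylation enzymes, had 0, 175 and 2485 CPM against 0, 0.181 and 415 CPM, a fold change of 2.95. It was read in 10 of 12 and 10 of 16 cells, and the E and G cells were near 0. By over 1.5 times a single cell moved ERG28 (2.02 without F23X, 3.87 without A26).

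IDI1, an isomerase at the head of the pathway, had a fold change of 2.66 (2.32 and 3.25), and ERG24, a sterol reductase, 1.76 (1.89 and 1.60). The 2 genes that kept the lower side were ERG7, the lanosterol synthase (-1.92), and ERG2, a sterol isomerase (-1.37). Against all isotonic cells the omission of a single cell ended the 2-fold difference of ERG2 (-0.93 without G56). The omission of 1 cell shifted by over 1.5 times IDI1 (2.06 without F22X), ERG24 (1.13 without F24X, 2.51 without G56) and ERG7 (-2.51 without F9X).

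DAN1, a wall mannoprotein known from anaerobic cells, had most of its reads in hypotonic cells. It was at 0, 43.2 and 433 CPM against 0, 0 and 0.742 CPM, with reads in 9 of 12 cells (75%, 95% Clopper-Pearson interval 42.8% to 94.5%) against 2 of 16 (12.5%, 1.55% to 38.3%). At 1000000 reads per cell 9 and 1 cells kept a read. In all, 5263 reads were counted in hypotonic cells (exact Poisson interval 5122 to 5407) and 16 in isotonic cells (9.15 to 26), and none of the latter in the E and G cells. The fold change was 6.34, or 5.74 without the highest cells, and the hypotonic cell was higher in 85.4% of pairs. Other genes of the list were less clear: SUT2, a regulator of sterol uptake genes, had 2.30 and TIR4, another mannoprotein, 1.99 (3.52 and 1.11), while TIR2 was lower (-2.25). Of 18 compared, 7 were 2-fold or more higher and 1 lower. Single cells moved the fold change by over 1.5 times for DAN1 (5.67 without F9X), TIR4 (1.12 without F30X, 4.14 without G50) and TIR2 (-1.28 without G57).

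**Figure D4:**
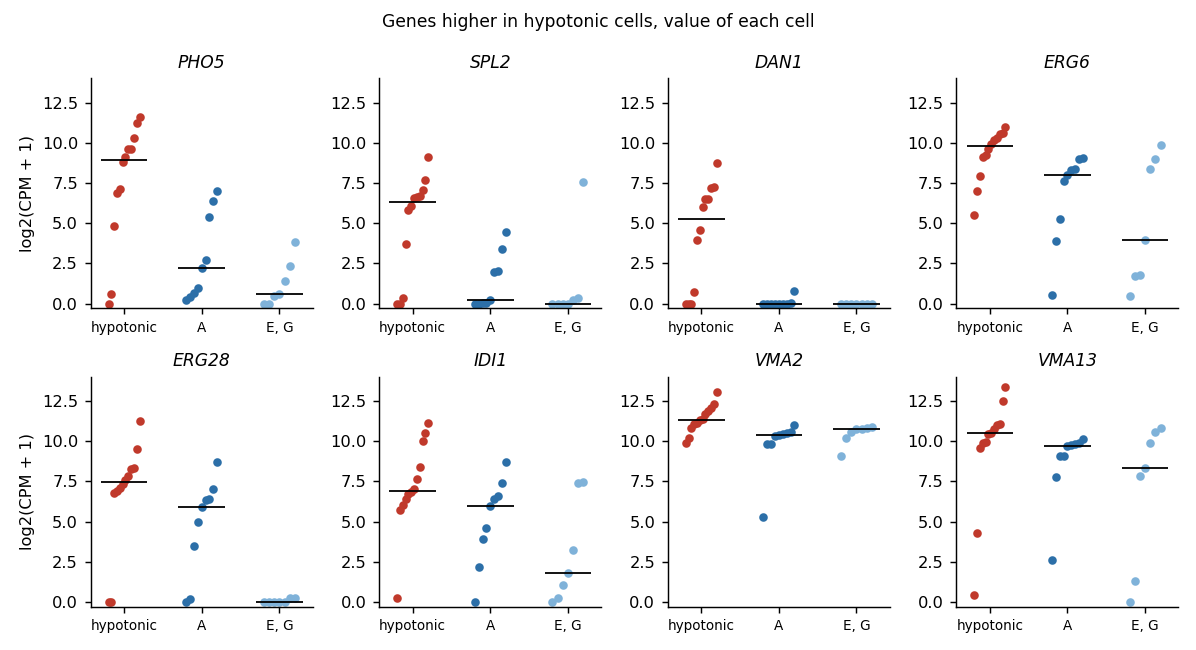
Level of PHO5, SPL2, DAN1, ERG6, ERG28, IDI1, VMA2 and VMA13 as log2(CPM + 1) in each of the 12 hypotonic, 9 isotonic A and 7 isotonic E and G cells, 1 point per cell and a line at the median. For DAN1 only 2 A cells and no E or G cell have a read, whereas for ERG6 and VMA2 the hypotonic cells form the upper end of a shared range.

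The vacuolar proton pump was split by subunit. VMA2, the regulatory subunit B, had 942, 2577 and 8527 CPM in hypotonic cells and 38.4, 1407 and 2054 CPM in isotonic cells. For VMA2 9 of 12 hypotonic cells lay above every isotonic cell, the hypotonic cell was higher in 86.5% of pairs, and the fold change was 1.28 (1.41 and 1.12). VMA13, subunit H, had 0.334, 1438 and 10379 CPM against 0, 685 and 1795 CPM (1.77).

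VMA3, VMA11 and VOA1, which belong to the membrane-bound ring or its assembly, were on the other side. VMA3, its main proteolipid, had 0.167, 175 and 342 CPM against 1.11, 609 and 1382 CPM, a fold change of -1.92 (-0.89 against E and G cells), and 13 of 16 isotonic cells lay above every hypotonic one. VMA11, a second proteolipid, had -1.83, and VOA1, an assembly factor of the ring, -2.33. Lower values were not confined to the ring. With each cell left out in turn, VMA10 and VMA8, subunits outside the membrane, ran from -2.78 to -1.91 and from -1.85 to -1.02. The proteolipid VMA16 ran from -2.23 to -1.69, but the membrane subunit VMA9 from -0.15 to 1.23. Of 16 subunits and assembly factors, a list written after values of members had been seen, 7 were at least 2-fold lower and 2 higher, with a median of -0.61, yet the summed share was higher in the hypotonic cell in 71.9% of pairs. The median over genes and the summed share thus had opposite signs.

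Among the genes that kept the higher side, ORFs of Ty retrotransposons held 4 of the 6 in which the hypotonic cell was most often higher. YOR142W-B had 0, 5.90 and 25.9 CPM in the hypotonic and 0, 0.537 and 3.35 CPM in isotonic cells, 90.1% of pairs and a fold change of 2.20. The others were YJR029W (87.5%, 1.59), YDR210W-B (87%, 2.81) and YGR161C-D (85.9%, 3.16). All were low in level. Ty copies are nearly identical and reads that aligned to several places were not counted, so the value of a single ORF is uncertain, and 49 of 91 such ORFs had enough cells to be compared. Of the 49, 18 were 2-fold or more higher and 3 lower, but only 8 kept the higher side, and the summed share was 0.0484% to 0.658% in hypotonic and 0.0395% to 0.588% in isotonic cells, with the hypotonic cell higher in 67.2% of pairs. This list too was added after its values had been seen. By over 1.5 times a single cell moved YGR161C-D (1.77 without F40X).

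Among the 46 genes of secretion and endocytosis, 12 were 2-fold or more higher and 8 lower, and 10 and 2 kept their side. On the higher side were SEC15 (1.80), an exocyst subunit that tethers vesicles to the plasma membrane, and ENT1 (2.25) and RVS161 (2.14), which bend the membrane in endocytosis. On the lower side were EXO70 (-2.62), another exocyst subunit, and SEC7 (-1.89), a Golgi exchange factor. OCH1, a Golgi mannosyltransferase known as a target of Skn7, had 0, 36.1 and 604 CPM against 0, 2.37 and 191.9 CPM, a fold change of 1.61 (1.47 and 1.82). Of 11 histone genes, 7 were at least 2-fold lower, 0 higher and 4 kept the lower side, including HHF2 for histone H4 (-1.96) and HTA2 for histone H2A (-2.37). Their summed share of reads did not follow this, with 0.157% ± 0.141 (SD, n = 12 cells) in hypotonic and 0.137% ± 0.0941 (SD, n = 16 cells) in isotonic cells, the hypotonic cell higher in 52.1% of pairs and 2 hypotonic cells above every isotonic one. Histone mRNA rises in S phase, and of the 32 genes of late G1 and S phase 16 were at least 2-fold lower and 7 higher, with 4 keeping each side. The phase of each cell was not known, so its part in these values was not tested. Against all isotonic cells the omission of a single cell ended the 2-fold difference of OCH1 (0.76 without F30X). The omission of 1 cell shifted by over 1.5 times SEC15 (1.10 without F24X, 2.46 without E11X), ENT1 (1.22 without F20X), EXO70 (-1.31 without E11X, -4.15 without F3X), HHF2 (-1.28 without A27) and HTA2 (-1.55 without A7).

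**Figure D5:**
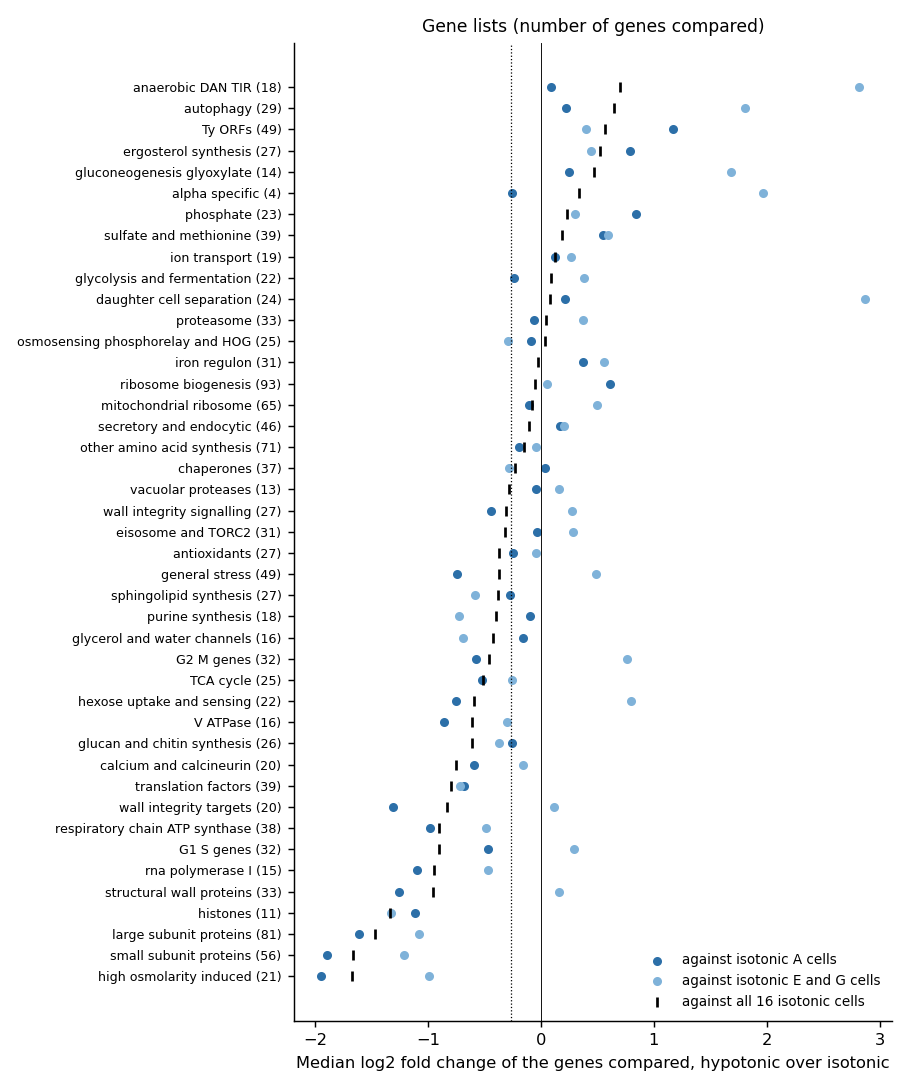
Median log2 fold change of the genes of each list in hypotonic over isotonic cells, against the A cells (dark), the E and G cells (light) and all 16 isotonic cells (bar), with the number of genes compared in brackets and a dotted line at the median of all genes, -0.26. The genes known to rise at high osmolarity and the ribosomal protein genes lie at the lower end for both parts of the isotonic cells, whereas lists such as those of general stress and structural wall proteins lie on opposite sides of 0 for the A and the E and G cells.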

How the data were processed

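The deposited tables held read counts per gene for each cell, made by the authors from uniquely aligned reads with STAR 2.5.2 on the R64 reference and HTSeq at default settings, with no normalization. The sources name no strand-preserving kit, so reads of a gene and an antisense partner cannot be told apart. Entries for ERCC RNA and for unassigned reads stayed out of all values. Reads without a feature were 1.23% to 11.9% of the sum of these reads and the reads on genes of a cell. CPM, fold changes and thinning (1000000 reads) were computed with Python 3.11.15, NumPy 2.4.6, pandas 2.3.3 and SciPy 1.17.1, with 1 CPM added before the log2 and a read required in at least 20% of the 28 cells. The scripts were tested on simulated data. MAST, which the authors ran on cells, was not repeated because it takes cells as replicates. With MAST, at its own limits and on cells that passed its own filter, the paper reported no differentially expressed gene between hypotonic and isotonic cells. It also described the 2 conditions as not well separated by their transcriptomes. Alternatives changed the cells, the scaling (TMM of edgeR 4.0.16, size factors of DESeq2 1.42.0, both under R 4.3.3), the average, the pseudocount and the filter.

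The cells, gene lists and tests were chosen with earlier results of these data known. Named genes were the 12 highest and 12 lowest that kept their side, also without the highest cells, ranked by their smallest fold change over the 3 contrasts. To these came the 6 highest and 6 lowest by cell pairs among all genes that kept their side. Up to 4 genes per list and genes with textbook roles at low osmolarity were named too. Of these, those with a role in the groups described are printed, and others are named with a remark or as examples of a list. There were 41 lists, and 3 more (high osmolarity, vacuolar pump, Ty) were added after values had been seen. Promoters were the 500 bases before the start codon of 6019 of 6420 gene entries matched to RefSeq (R64), searched on both strands for 14 motifs.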

Additional observations from a re-analysis of the deposited data

Results flagged for a closer look

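ERCC spike-in RNA lies outside the measurement compared here and differed between the hypotonic and isotonic cells compared. Hypotonic cells had a median of 2335 ERCC reads, from 6 to 33715, against at most 117 in the 16 isotonic cells compared. Of these 16 cells 10 had 0, and 9 of 12 hypotonic cells lay above all 16. Of the left-out isotonic cells, G36 had 2040822 ERCC reads, 14.1% of its reads on genes and ERCC, and A44 and A47 had 0. In the cells compared, ERCC reads were at most 0.688% of the reads on genes and ERCC of a cell. Whether the tubes of the isotonic A cells received the spike-in was not found in the sources used, and the part of this difference in the values above was not tested.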

How the results depend on the processing

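Counts of genes stayed within 1.5 times under most alternatives. Against the E and G cells alone 2205 genes were higher, and 61.7% of the genes past 2-fold were higher, against 41.3% with all isotonic cells. Genes that kept the higher side were 371 with mean log2 values, and those that kept the lower side 407 without the highest cells. Leaving out each cell in turn gave 1123 to 1260 higher and 1610 to 1924 lower genes, and 758 to 855 and 599 to 854 that kept their side. The median of all genes moved by 0.06 with summed reads, 0.18 with summed reads under TMM and 0.25 under DESeq2 size factors, 0.26 with median CPM, 0.16 with mean log2 values and 0.63 against the E and G cells alone, and the share of higher among called genes was 51.0% with summed reads under DESeq2 size factors and 49.4% with median CPM. Many genes rested on few cells: of the 802 and 655 genes that kept their side, 289 and 224 did so with median CPM and 475 and 326 without the highest cell of each group. SHO1 was -2.24 with median CPM and -0.0878 with mean log2 values. WSC2 was -0.46 and -0.00687 there, and -0.0788 without F22X. VTC5 was 3.58 against the E and G cells alone and between -2.79 (without F3X) and 0.35 (without A29) with each cell left out. GCY1 was -0.00739 without F22X and F23X, an alternative chosen after seeing the data. The median of the 3 a-specific genes compared was -0.094 with all 19 isotonic cells, -0.034 with no filter, -0.29 without the highest cells and, with each cell left out in turn, between -1.11 (without F30X) and 1.19. The cause was not tested. No paired analysis was possible because the labels give no replicate numbers. Medians of the other lists past 2-fold and the other printed genes past 2-fold did not change sign in any alternative run. Named genes past 2-fold that are not printed changed sign 10 times with each cell left out in turn and 26 times under the other alternatives. Every cell had 3603505 reads or more on genes, but each condition counts as 1 sample, so no error between cultures is known.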

Other observations

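Gene groups not described above were also uneven, and are to be read beside 21.2% of all genes higher and 30.1% lower. Of 24 genes of daughter cell separation compared, 8 were at least 2-fold higher and 4 lower, and 6 and 1 kept their side, and their median was 0.22 against the A cells and 2.87 against the E and G cells. Of 29 autophagy genes, 11 were at least 2-fold higher and 9 lower, and 5 and 3 kept their side. Of 33 proteasome genes, 5 were at least 2-fold higher and 0 lower, with 4 keeping the higher side. Of 27 genes of thioredoxin, glutaredoxin and peroxide defence, 2 were at least 2-fold higher and 10 lower, and 1 and 6 kept their side. Of 31 genes of the iron regulon, 7 were at least 2-fold higher and 7 lower.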
